A study of Mus musculus with 7 samples.

Results

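Immobilized mouse gastrocnemius was compared between controls and skeletal muscle knockouts of Park7, the gene that encodes the protein DJ-1. The genes followed were Dach2, Hdac4, Hdac5, Hdac9, Myog, Myod1, Myf6, Runx1, Ncam1 and Mef2c. They are 10 of the 21487 genes in the deposited table and were matched by symbol. The set was selected on its place in the Dach2, Hdac4 and myogenin response to nerve activity and on measured values of these same libraries, namely the knockout-minus-control differences. For that reason the differences of these 10 genes are described below without a p-value. All 10 were abundant enough to pass the filter on low counts.

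The gastrocnemius is the fast calf muscle. Both groups had the treatment that the labels call immobilization-induced muscle atrophy. The 3 controls are labelled WT and the study's text calls them flox mice. The 4 knockouts (MPARK7KO) are labelled as a skeletal muscle knockout of PARK7. No library of a free limb or of a denervated muscle was analysed here, so the effect of disuse itself cannot be read from these data. The labels used here name neither the promoter that drives Cre nor the exons removed, age or sex. Nothing in the labels ties a library to an animal of its own, and p-values below therefore measure only the spread between these samples.

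Muscle fibres that lose contact with the nerve switch on a set of genes that electrical activity normally holds down. In this chain Dach2, a transcriptional corepressor, falls after denervation, while the class IIa histone deacetylase HDAC4 accumulates and represses Dach2, which allows the myogenic factor myogenin to rise. Myogenin then activates genes of the neuromuscular junction and the ubiquitin ligases of muscle wasting, and the class IIa deacetylases also bind and silence the MEF2 factors.

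Depth was even, at 24458339 to 26389008 counts per library. Levels are given as counts-per-million (CPM) on library sizes scaled by TMM, a method that corrects for differences in RNA composition. Park7 checked the labels: it had 240, 229 and 266 CPM in the controls and 35.9, 41.5, 34.7 and 37.2 CPM in the knockouts, with no overlap. The tissue label was checked against 10 fibre genes such as Ckm and Acta1, whose summed level was 118000 to 145000 CPM in the controls and 140000 to 212000 CPM in the knockouts. All 7 libraries held transcripts of the Y-linked genes Ddx3y, Eif2s3y, Kdm5d and Uty. Xist, which females express, had 0 to 5 counts per library. By these genes all 7 libraries were male, so the X-linked Dach2 was compared among males.

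RefSeq on GRCm38.p6 gave windows of 250 bases before a transcription start for 7 of the 10 genes, 12 windows in all. Sequences are shown for the windows of Myog, Dach2 and Hdac5 and for 1 of the 2 windows of Hdac9, which hold motif matches. The Hdac4 window, on the minus strand at chr1:92180342-92180591, held no match to any of the motifs and is not shown. The windows of Runx1 and Mef2c, some of which hold matches too, are also not shown as sequence. Capitals mark matches, on either strand, to the E-box CANNTG of myogenic factors, the MEF3 motif TCAGGTTTC bound by homeodomain factors such as Six4, the RUNX motif TGTGGT, and the MEF2 consensus with any last base. That looser form of the MEF2 motif was chosen after the windows had been seen. All sequences run 5′ to 3′ along the gene's strand. The Myog window lies on the plus strand at chr1:134289754-134290003. The Dach2 windows lie on the plus strand at chrX:113297260-113297509 and chrX:113298006-113298255. The Hdac5 window lies on the minus strand at chr11:102230173-102230422. The Hdac9 window shown lies on the minus strand at chr12:34528890-34529139, and the one not shown, which holds 2 E-boxes, at chr12:34917096-34917345.
Myog: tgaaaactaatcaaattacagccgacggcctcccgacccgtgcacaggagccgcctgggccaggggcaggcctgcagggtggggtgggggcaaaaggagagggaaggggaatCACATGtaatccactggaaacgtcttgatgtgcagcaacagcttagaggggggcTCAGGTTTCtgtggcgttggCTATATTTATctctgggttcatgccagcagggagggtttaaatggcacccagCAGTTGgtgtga
Dach2, first start: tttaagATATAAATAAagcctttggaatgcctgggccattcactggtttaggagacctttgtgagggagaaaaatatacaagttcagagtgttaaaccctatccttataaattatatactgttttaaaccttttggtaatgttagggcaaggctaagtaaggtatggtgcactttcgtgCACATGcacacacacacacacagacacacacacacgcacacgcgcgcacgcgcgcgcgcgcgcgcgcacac
Dach2, second start: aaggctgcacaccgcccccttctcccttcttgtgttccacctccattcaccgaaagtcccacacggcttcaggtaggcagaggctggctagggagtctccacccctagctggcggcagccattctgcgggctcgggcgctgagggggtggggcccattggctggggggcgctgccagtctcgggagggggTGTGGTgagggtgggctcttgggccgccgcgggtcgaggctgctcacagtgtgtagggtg
Hdac5: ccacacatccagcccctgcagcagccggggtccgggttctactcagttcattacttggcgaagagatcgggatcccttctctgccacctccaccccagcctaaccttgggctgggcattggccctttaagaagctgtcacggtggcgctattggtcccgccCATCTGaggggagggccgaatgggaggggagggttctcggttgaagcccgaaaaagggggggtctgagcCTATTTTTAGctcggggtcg
Hdac9: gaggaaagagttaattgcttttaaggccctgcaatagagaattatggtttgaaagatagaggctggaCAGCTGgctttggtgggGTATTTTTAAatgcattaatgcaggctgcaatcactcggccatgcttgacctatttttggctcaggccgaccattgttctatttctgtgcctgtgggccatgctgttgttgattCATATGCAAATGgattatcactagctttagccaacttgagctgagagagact

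The Myog window held the one MEF3 match among the 12 windows, 84 bases before the start. It also held a match to the looser MEF2 motif 64 bases before the start and E-boxes 138 and 12 bases before it. The MEF3 motif is rare, with a match in 0.387% of 32851 RefSeq windows of this length. The first Dach2 window had a looser MEF2 match 244 bases and an E-box 71 bases before the start, and the second had the one RUNX match of the set, 60 bases before it. Hdac5 had the one match to the full MEF2 consensus, 20 bases before its start, and the Hdac9 window shown had a looser one at 166 bases. These looser MEF2 matches stood in 5 of the 12 windows and in 7.03% of all windows. Because the looser form was chosen after these windows had been seen, its share in them shows no enrichment. The full consensus stood in 1 of the 12 windows and in 2.92% of all windows. E-boxes were in 8 of the 12 windows and in 66.2% of all windows. The special E-box CAGCTG was in 2 of the 12 (both of Hdac9), against 13% of all, and the RUNX motif was in 14% of all windows. A match describes letters in the window and shows no binding.

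**Figure D1:**
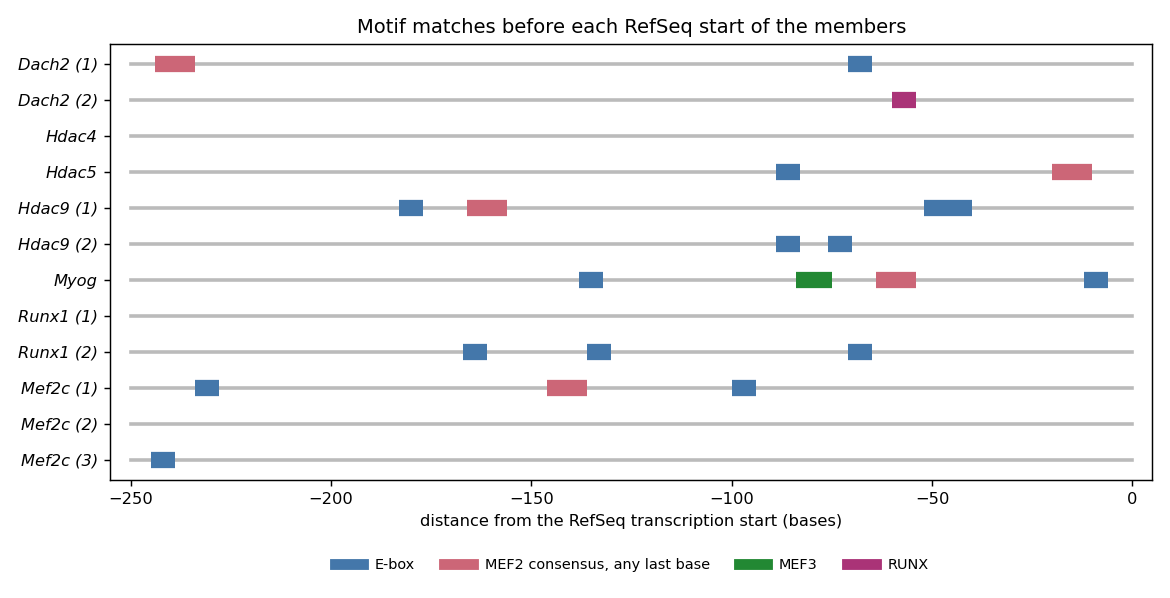
Positions of motif matches in the 250 bases before each RefSeq start of the genes that have a window (horizontal axis, distance from the start in bases; one line per start). The Myog line carries E-box, MEF3 and MEF2 matches together, and the MEF3 match 84 bases before its start is the one of its kind in the 12 windows.

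Within the set the knockouts stood below the controls for Dach2 and Ncam1 and overlapped them for the other members. By the rule applied to every gene (adjusted p under 0.05 by edgeR's quasi-likelihood test with Benjamini-Hochberg adjustment over all tested genes), 2 of the 10 were called, both lower in the knockout. Of the 13409 genes tested 14.9% were called, 6.67% higher and 8.23% lower in the knockout. Groups that did not overlap were also found for 2 of the 10, both lower, against 28.8% of all tested genes, 14.0% higher and 14.8% lower. Since the set was chosen with these differences known, its counts are given as a description. The log2 fold change, knockout minus control, was above 0 for 5 members and below 0 for 5, with a median of -0.04, and the median over all tested genes was 0.01.

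**Figure D2:**
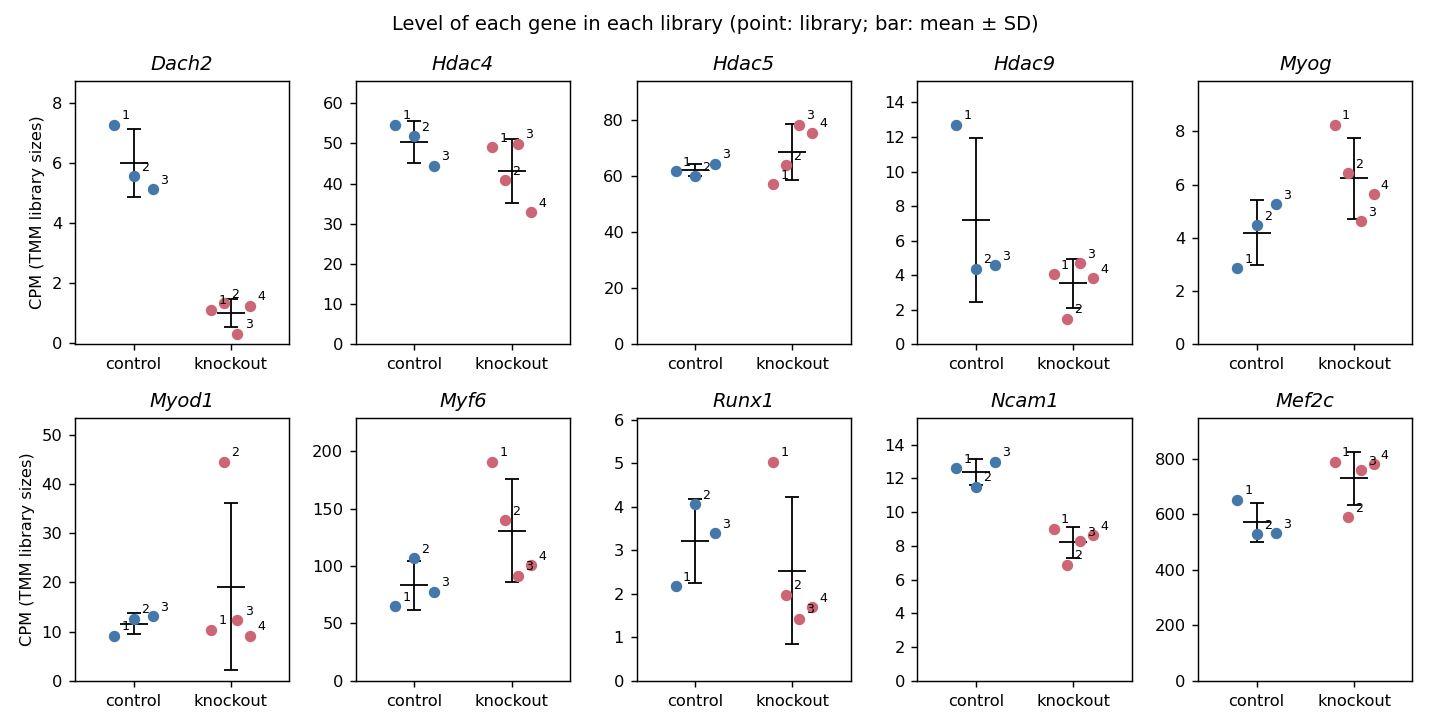
CPM (vertical axes, each with its own scale) of the 10 genes in the 3 control and 4 knockout libraries; points are libraries with their replicate number, and the bar is the mean with its SD. The knockouts lie below all controls for Dach2 (0.319 to 1.33 against 5.14 to 7.28 CPM) and Ncam1 (6.89 to 9.03 against 11.5 to 13.0 CPM), and Myod1 stands at 44.6 CPM in knockout 2.

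Dach2, the corepressor between HDAC4 and myogenin in the chain, lies on the plus strand at chrX:113297510-113836386 (GRCm38). It had 7.28, 5.56 and 5.14 CPM in controls 1 to 3 and 1.12, 1.33, 0.319 and 1.25 CPM in knockouts 1 to 4. Every knockout was lower than every control, and knockout 3 was the lowest of all. The means were 5.99 ± 1.13 CPM (SD, n = 3) and 1.01 ± 0.466 CPM (SD, n = 4), a level 5.95-fold lower in the knockout, and the log2 fold change was -2.56 (SE 0.322). The values rest on 133 to 181 counts per control library and 8 to 35 counts per knockout library. Leaving out 1 library at a time gave log2 fold changes from -2.73 to -2.27.

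Its paralog Dach1, a related corepressor that was not chosen for the set, had 7.20, 4.79 and 4.10 CPM in the controls and 3.41, 1.98, 3.51 and 4.07 CPM in the knockouts. The groups were close but did not overlap, and the difference missed the threshold (log2 fold change -0.73, SE 0.263, edgeR adjusted p = 0.0976). Levels per kilobase of exon allow a rough comparison between genes, since the length used pools the exons of all annotated transcripts. On this scale both paralogs were near each other in the controls, Dach1 at 0.733 ± 0.222 and Dach2 at 0.607 ± 0.115 CPM per kb (SD, n = 3). In the knockouts Dach1 stood at 0.443 ± 0.122 and Dach2 at 0.102 ± 0.0472 CPM per kb (SD, n = 4). The Dach2 share of the summed Dach level was 42.8%, 46.2% and 48.2% in the controls and 19.6%, 33.3%, 6.32% and 18.5% in the knockouts.

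Dach proteins work with homeodomain factors such as Six4, which bind MEF3 motifs such as the one in the Myog window, and with their Eya coactivators. Of the 9 genes tested in the list of these partners and Dach1, 2 rose and none fell. Six2 had 5.75, 4.37 and 3.75 CPM in the controls and 9.51, 13.2, 21.2 and 10.8 CPM in the knockouts, a rise with no overlap (log2 fold change 1.56, SE 0.288, edgeR adjusted p = 0.0113). Eya4 had 49.2, 65.4 and 60.4 CPM in the controls and 108, 87.0, 88.7 and 91.9 CPM in the knockouts (log2 fold change 0.69, SE 0.118, edgeR adjusted p = 0.00893). Knockout 3, the library with the least Dach2, had the most Six2. No call was made for Six4, Six5, Eya1, Eya2 and Eya3. Their log2 fold changes were -0.18 for Six4, -0.55 for Six5, 0.42 for Eya1, -0.34 for Eya2 and -0.07 for Eya3, with edgeR adjusted p of 0.313, 0.114, 0.0689, 0.37 and 0.708. DESeq2 also called Eya1 (adjusted p = 0.0378, the lowest of its alternatives, which reached 0.192).

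**Figure D3:**
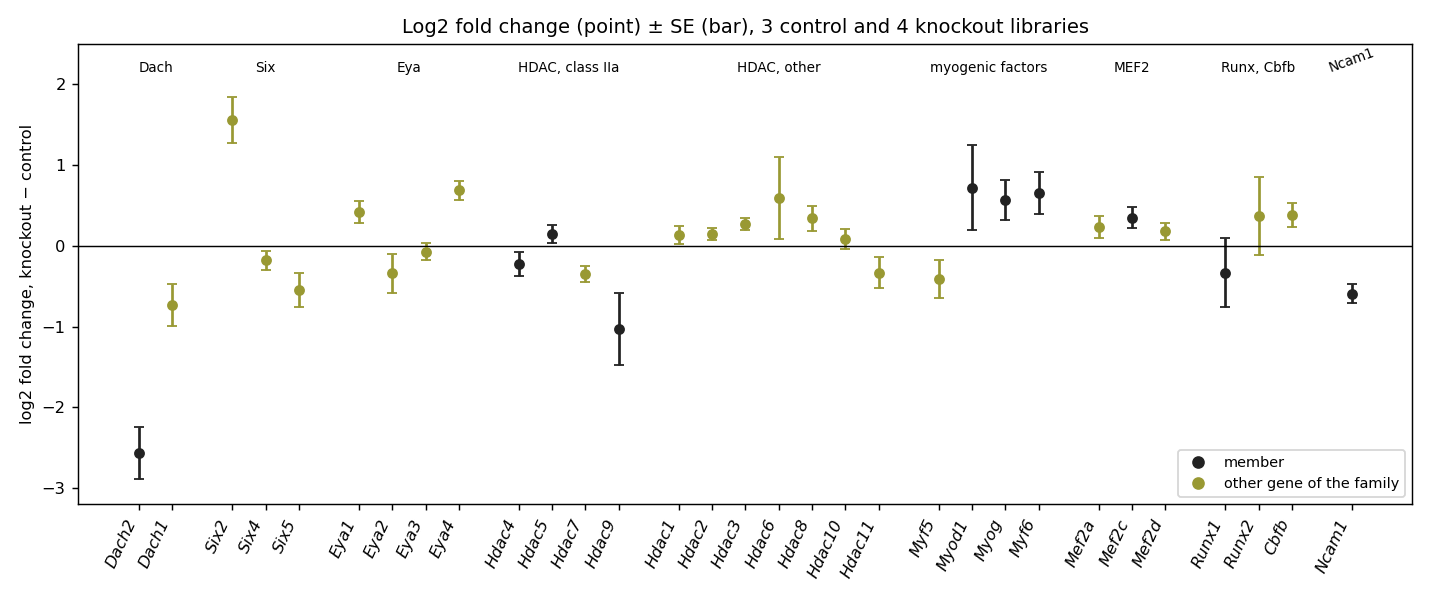
Log2 fold change, knockout minus control (vertical axis), of the 10 genes (black) and of other tested genes of their families (olive); points are edgeR estimates and bars are ± 1 SE. Dach2 lies lowest at -2.56 and Six2 highest at 1.56, while the class IIa deacetylases fall on both sides of 0.

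The class IIa histone deacetylases shuttle between cytoplasm and nucleus with muscle activity and repress MEF2 targets. Hdac4, the member that links denervation to Dach2, lies on the minus strand at chr1:91928779-92195699. It had 54.6, 51.8 and 44.4 CPM in the controls and 49.1, 40.9, 49.9 and 32.9 CPM in the knockouts. The groups overlapped, with knockout 4 the lowest library. The means were 50.3 ± 5.24 CPM (SD, n = 3) and 43.2 ± 7.98 CPM (SD, n = 4), and the log2 fold change was -0.22 (SE 0.147). An opposite-strand lincRNA, Gm26720, overlaps 22.4% of the Hdac4 exon bases in GENCODE M21. No source used here gives the strand setting of the counting, so reads of both genes cannot be told apart there. The same holds for smaller overlaps of Ncam1 with the antisense gene Gm11149 (4.81% of its exon bases) and of Runx1 with the antisense gene Gm26626 (0.881%). Hdac5 shares 1.26% of its exon bases with Mir8101 on its own strand.

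Hdac5, the second nuclear repressor of the class, lies on the minus strand at chr11:102194432-102230166. It had 61.7, 60.0 and 64.4 CPM in the controls and 57.0, 63.9, 78.2 and 75.4 CPM in the knockouts. Knockouts 3 and 4 were above all controls, knockout 2 lay among them and knockout 1 was below them. The means were 62.0 ± 2.26 CPM (SD, n = 3) and 68.6 ± 9.90 CPM (SD, n = 4), with a log2 fold change of 0.15 (SE 0.113).

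Hdac9, the class member whose gene is itself a target of MEF2, lies on the minus strand at chr12:34047580-34917095. It had 12.7, 4.37 and 4.56 CPM in the controls and 4.06, 1.48, 4.70 and 3.83 CPM in the knockouts. Control 1 stood far above the other 6 libraries, and controls 2 and 3 lay within the range of the knockouts. The log2 fold change was -1.03 (SE 0.446) over all libraries and -0.35 without control 1. The same library held the highest summed level of 11 Schwann cell markers, 180 CPM against 46.0 and 56.6 CPM in the other controls and 28.1 to 43.6 CPM in the knockouts. The part of that difference in the Hdac9 value was not tested.

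Hdac7, the class member that was not chosen for the set, fell slightly. It had 15.7, 17.7 and 16.0 CPM in the controls and 12.5, 14.3, 12.0 and 13.0 CPM in the knockouts, with no overlap (log2 fold change -0.35, SE 0.0984, edgeR adjusted p = 0.045). That call was lost when any 1 library other than knockout 2 was left out, with adjusted p up to 0.14. Per kilobase of exon Hdac5 was the most abundant of the 4, with a control mean of 7.07 ± 0.258 CPM per kb (SD, n = 3) and a knockout mean of 7.82 ± 1.13 CPM per kb (SD, n = 4). Hdac4 followed at 3.18 ± 0.331 and 2.73 ± 0.505 CPM per kb, then Hdac7 at 2.44 ± 0.162 and 1.92 ± 0.150, and Hdac9 at 0.492 ± 0.324 and 0.240 ± 0.0959. Hdac5 made up 51.4%, 52.4% and 57.2% of the summed class IIa level in the controls and 55.4%, 60.2%, 62.9% and 66.8% in the knockouts. These shares overlapped in knockout 1, which lay between controls 2 and 3.

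Of the 8 other histone deacetylases tested, 1 rose and 1, Hdac7, fell. Hdac3, the catalytic partner that class IIa enzymes borrow through the NCoR corepressors, had 48.4, 46.0 and 46.2 CPM in the controls and 54.2, 53.6, 60.8 and 58.3 CPM in the knockouts (log2 fold change 0.27, SE 0.0756, edgeR adjusted p = 0.0418). Its call was lost in 8 of its 13 alternatives, among them those without any 1 of the controls, with adjusted p up to 0.127. Hdac1, Hdac2, Hdac6, Hdac8, Hdac10 and Hdac11 were not called, with log2 fold changes of 0.13, 0.15, 0.59, 0.34, 0.09 and -0.33. Among 18 tested kinases, phosphatases and corepressors that set where class IIa enzymes reside, 1 rose and none fell. It was Sik1, a kinase that drives these enzymes out of the nucleus, with control libraries at 9.77, 8.82 and 8.15 CPM and knockout libraries at 18.8, 17.8, 11.2 and 14.9 CPM. Its log2 fold change was 0.81 (SE 0.177, edgeR adjusted p = 0.0198), and the call was lost without control 2 or without control 3, at adjusted p of 0.059 and 0.0731.

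Mef2c, the MEF2 factor that class IIa deacetylases silence, lies on the plus strand at chr13:83504034-83667080. It had 653, 528 and 531 CPM in the controls and 790, 589, 758 and 781 CPM in the knockouts. Knockouts 1, 3 and 4 were above all controls and knockout 2 lay within their range. The means were 571 ± 71.3 CPM (SD, n = 3) and 729 ± 94.3 CPM (SD, n = 4), a ratio of 1.28, with a log2 fold change of 0.35 (SE 0.128). Mef2d and Mef2a, the other abundant MEF2 factors, were not called (log2 fold changes 0.18 and 0.23, edgeR adjusted p = 0.268 and 0.273), nor did either have an unadjusted p under 0.05, and DESeq2 called neither. Mef2a was called without knockout 2 (edgeR adjusted p = 0.0303, against up to 0.51 over its alternatives). Of the summed MEF2 level per kilobase, Mef2c held 41.6% ± 4.66 in control libraries (SD, n = 3) against 44.3% ± 1.49 in knockout libraries (SD, n = 4).

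Myog encodes myogenin, the factor that Dach2 represses, and lies on the plus strand at chr1:134289989-134292548. It had 2.85, 4.48 and 5.25 CPM in the controls and 8.24, 6.43, 4.62 and 5.64 CPM in the knockouts. Knockouts 1, 2 and 4 were above all controls, and knockout 3 lay between controls 2 and 3. The means were 4.20 ± 1.23 CPM (SD, n = 3) and 6.23 ± 1.53 CPM (SD, n = 4), a ratio of 1.48, and the log2 fold change was 0.57 (SE 0.246). It was 0.35 without control 1, the lowest control. Knockout 3 thus had both the least Dach2 and the least Myog of the knockouts.

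Set against each other per kilobase of exon, Myog exceeded Dach2 by 2.59-fold, 5.33-fold and 6.75-fold in the controls and by 48.3-fold, 31.9-fold, 95.7-fold and 29.8-fold in the knockouts. The excess in the controls rests on the exon lengths used, 9.868 kb for Dach2 and 1.495 kb for Myog. In CPM the control mean of Dach2, 5.99, was above that of Myog, 4.20. The ranges were far apart, as those of Dach2 alone were, and both genes were chosen with their differences known. The gap came mainly from the Dach2 level, 0.607 against 0.102 CPM per kb, and less from the Myog level, 2.81 against 4.17 CPM per kb.

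Myf6, or MRF4, the myogenic factor that dominates in adult fibres, lies on the minus strand at chr10:107492853-107494737. It had 65.3, 107 and 77.6 CPM in the controls and 191, 140, 91.7 and 101 CPM in the knockouts. Knockouts 1 and 2 were above all controls, and knockouts 3 and 4 lay between controls 2 and 3. The means were 83.3 ± 21.4 CPM (SD, n = 3) and 131 ± 45.3 CPM (SD, n = 4), a ratio of 1.57, with a log2 fold change of 0.66 (SE 0.261). Without 1 library at a time it ran from 0.41 to 0.88.

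Myod1, the determination factor of satellite cells and fast fibres, lies on the plus strand at chr7:46376474-46379099. It had 9.13, 12.6 and 13.1 CPM in the controls and 10.4, 44.6, 12.3 and 9.19 CPM in the knockouts. Knockout 2 stood apart with 1172 counts, and the other 3 knockouts lay within the range of the controls. The log2 fold change was 0.72 (SE 0.527) with knockout 2 and -0.12 without it. That library also had the highest summed level of 11 satellite cell markers, 204 CPM against 141 to 173 CPM in the other knockouts and 102 to 122 CPM in the controls. Of that sum 129 CPM were Musk, which fibres also express. Pax7, the defining marker of satellite cells, had 1.67 CPM in that library against 1.97 to 2.51 CPM in the other knockouts. The part of satellite cells in the Myod1 value was not tested.

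Per kilobase of exon the 4 myogenic factors kept a wide spread of levels. Myf6 had a control mean of 65.9 ± 16.9 CPM per kb (SD, n = 3) and a knockout mean of 104 ± 35.8 CPM per kb (SD, n = 4), and made up 86.9% and 87.4% of their sum. Myod1 was at 6.23 ± 1.16 and 10.3 ± 9.14 CPM per kb, and Myog at 2.81 ± 0.820 and 4.17 ± 1.02. Myf5, the early determination factor, was lowest at 0.743 ± 0.0964 and 0.558 ± 0.133 CPM per kb (log2 fold change of its CPM -0.41, edgeR adjusted p = 0.265). Of 14 tested partners and inhibitors of these factors, such as the E proteins and Id proteins, none was called by edgeR or by DESeq2, and 3 had an unadjusted p under 0.05. The smallest p was that of Rb1, the retinoblastoma protein (log2 fold change 0.29, edgeR adjusted p = 0.0644). Rb1 was called without knockout 2 (edgeR adjusted p = 0.0319, against up to 0.174 over its alternatives).

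**Figure D4:**
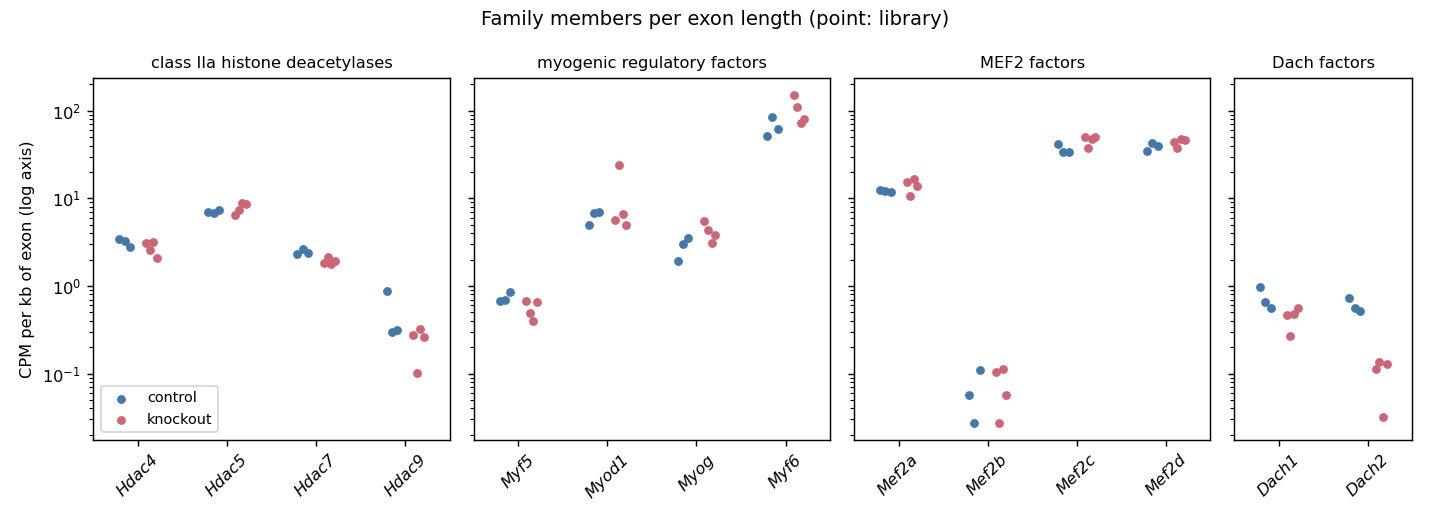
CPM per kilobase of exon (log axis) of the class IIa deacetylases, myogenic factors, MEF2 factors and Dach factors in each library (points; blue control, red knockout). Myf6 and Mef2c are the most abundant of the 10 genes, and Dach2 drops from 0.607 to 0.102 CPM per kb while Dach1 lies at 0.733 and 0.443.

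Runx1, a transcription factor that denervated fibres switch on and that protects them from wasting, lies on the minus strand at chr16:92601466-92826149. It had 2.17, 4.06 and 3.40 CPM in the controls and 5.04, 1.98, 1.43 and 1.69 CPM in the knockouts. Knockout 1 was the highest of the 7 libraries and the other 3 knockouts were below all controls. The log2 fold change was -0.33 (SE 0.425) over all libraries and -0.92 without knockout 1. Values rested on 36 to 139 counts per library. Its relative Runx2 and the shared partner subunit Cbfb were not called (log2 fold changes 0.37 and 0.38, edgeR adjusted p = 0.637 and 0.116). DESeq2 called neither, and 1 of the 2 had an unadjusted p under 0.05 in edgeR.

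Ncam1, the neural cell adhesion molecule that spreads over the fibre surface after denervation, lies on the minus strand at chr9:49502136-49798925. It had 12.6, 11.5 and 13.0 CPM in the controls and 9.03, 6.89, 8.28 and 8.62 CPM in the knockouts. Every knockout was lower than every control. The means were 12.4 ± 0.751 CPM (SD, n = 3) and 8.21 ± 0.932 CPM (SD, n = 4), a ratio of 0.663, and the log2 fold change was -0.59 (SE 0.118). Leaving out 1 library at a time gave -0.65 to -0.52. Ncam1 and Hdac5 had the tightest controls of the set, with coefficients of variation of 6.07% and 3.65%.

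Ncam1 is also made by Schwann cells and satellite cells, and markers of other cells were measured beside it. In bulk muscle, fewer cells of a type and less RNA per cell cannot be told apart. Of 9 tested Schwann cell markers, 2 fell and none rose, and the defining marker Sox10 was not called. One of those that fell was the neuregulin receptor Erbb3 (log2 fold change -0.85, edgeR adjusted p = 0.0293), whose call was lost without control 1 (adjusted p = 0.0723), with adjusted p up to 0.0824 over its alternatives. Without control 1, where the summed Schwann cell markers were highest, the Ncam1 log2 fold change was -0.59. The sums of controls 2 and 3, at 46.0 and 56.6 CPM, were still above those of the knockouts, at 28.1 to 43.6 CPM. Of 10 tested satellite cell markers, 1 rose (Musk) and none fell. Of the leukocyte markers 3 of 8 fell, with summed levels of 42.3 to 69.7 CPM in the controls and 23.4 to 32.9 CPM in the knockouts. Endothelial markers fell in 2 of 8 cases, with sums of 267 to 331 and 227 to 262 CPM, and fibroblast markers in 3 of 7, with sums of 644 to 1060 and 580 to 769 CPM. These counts depended on single libraries. Without control 3, none of the Schwann cell or endothelial markers fell, and 1 leukocyte and 1 fibroblast marker did. The Schwann cell count was also 0 without control 1, knockout 3 or knockout 4, and the endothelial count was 1 without control 1 or control 2. The leukocyte count was 2 without control 1 and 1 without knockout 3 or 4, and the fibroblast count was 1 without control 1 or without knockout 2, 3 or 4. The rise of Musk was lost without control 1. No marker of these lists was at 0 in all libraries, and their part in the Ncam1 level was not tested.

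Of 10 tested adhesion and synaptic organizer genes around Ncam1 at the nerve contact, 1 rose and 1 fell. Lrp4, the agrin receptor, had 13.3, 13.5 and 13.8 CPM in the controls and 6.39, 9.02, 9.36 and 7.86 CPM in the knockouts, lower in all of them (log2 fold change -0.73, SE 0.136, edgeR adjusted p = 0.0116). Col13a1, a synaptic collagen, had 0.309 to 0.345 CPM in the controls and 0.580 to 0.875 CPM in the knockouts (log2 fold change 1.18, SE 0.295, edgeR adjusted p = 0.031). DESeq2 did not call Col13a1 (adjusted p = 0.0614), and its adjusted p reached 0.0967 when 1 library was left out. The call was lost in 8 of its 13 alternatives, and it rests on 8 to 9 counts per control library and 16 to 23 per knockout library.

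Genes that nerve activity represses are the readout of the chain, and they moved both ways. Of 14 tested, 2 rose and 5 fell, where 6.67% of all tested genes were called higher and 8.23% lower. The median log2 fold change was -0.80 in the list and 0.01 over all tested genes. The list was chosen with earlier results of these data known, so these values are given as a description. Musk, the kinase that organizes the synapse, had 39.2, 54.9 and 54.3 CPM in the controls and 101, 129, 89.9 and 72.3 CPM in the knockouts, a rise in all 4 (log2 fold change 0.99, SE 0.196, edgeR adjusted p = 0.0144). Without control 1 its adjusted p was 0.0512, the highest of its alternatives. Myh8, the perinatal myosin, fell from 7.64, 7.28 and 13.4 CPM to 3.52, 2.70, 2.91 and 2.70 CPM (log2 fold change -1.67, SE 0.230, edgeR adjusted p = 0.00496). Kcnn3, the apamin-sensitive potassium channel of denervated fibres, fell from 2.01, 2.11 and 2.40 CPM to 1.09, 0.533, 0.757 and 1.29 CPM (log2 fold change -1.24, edgeR adjusted p = 0.0195).

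Nes, the intermediate filament nestin, fell from 57.4, 99.9 and 58.3 CPM to 39.6, 29.3, 42.8 and 43.1 CPM (log2 fold change -0.89, edgeR adjusted p = 0.0254). The call of Kcnn3 was lost without any 1 of the controls or without knockout 3, at adjusted p of 0.0501 to 0.0701. That of Nes was lost without control 2 (0.0563) or without knockout 3 (0.0517). The remaining calls, named after their values were seen, were the acetylcholine receptor subunit Chrnd (lower, log2 fold change -1.03, edgeR adjusted p = 0.0463), the deaminase Ampd3 (lower, -0.70, 0.0474) and the phospholipase Pla2g7 (higher, 0.97, 0.027). The receptor subunits Chrna1, Chrnb1 and Chrne were not called, with log2 fold changes of 0.19, -0.06 and -0.26. The counts of this list changed with the libraries used: without control 1 none rose and 2 fell, and without knockout 3 there was 1 in each direction. New or regenerating fibres, which share markers with this list, had 2 of 5 tested markers lower (Myh8 and Myl4) and none higher. The call of Myl4 was lost without control 1 or 3 or without knockout 2, 3 or 4, with adjusted p up to 0.102.

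Among 8 tested genes downstream of myogenin and HDAC4, 3 rose and 1 fell. Fbxo32 (atrogin-1) and Trim63 (MuRF1), the ubiquitin ligases that myogenin activates after denervation, rose in the knockouts (log2 fold changes 1.22 and 1.37, SE 0.163 and 0.223, edgeR adjusted p = 0.00452 and 0.00795). Cdkn1a, the cell cycle inhibitor p21, rose by 1.01 (SE 0.185, edgeR adjusted p = 0.0111). Each of these 3 was higher in every knockout than in every control. Dkk2, a secreted Wnt modulator, had 7.56, 13.2 and 8.73 CPM in the controls and 5.77, 2.40, 2.39 and 3.59 CPM in the knockouts (log2 fold change -1.47, SE 0.316, edgeR adjusted p = 0.0186). Its adjusted p was 0.0634 without control 2. Gadd45a, which HDAC4 induces after denervation, stood at 19.1 ± 3.07 CPM (SD, n = 3) and 15.5 ± 6.82 CPM (SD, n = 4), with overlapping groups (edgeR adjusted p = 0.512).

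In the order of their levels per kilobase of exon in the controls, the 10 genes ran from Myf6 (65.9 CPM per kb) and Mef2c (36.3) through Hdac5 (7.07), Myod1 (6.23), Hdac4 (3.18), Myog (2.81) and Ncam1 (1.43) to Dach2 (0.607), Hdac9 (0.492) and Runx1 (0.267). The neighbours Hdac5 and Myod1, Hdac4 and Myog, Dach2 and Hdac9, and Hdac9 and Runx1 lay within their SD of each other. In the knockouts Dach2 was last, at 0.102 CPM per kb, below Runx1 at 0.211 and Hdac9 at 0.240. Myog, at 4.17 CPM per kb, stood above Hdac4, at 2.73 CPM per kb.

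**Figure D5:**
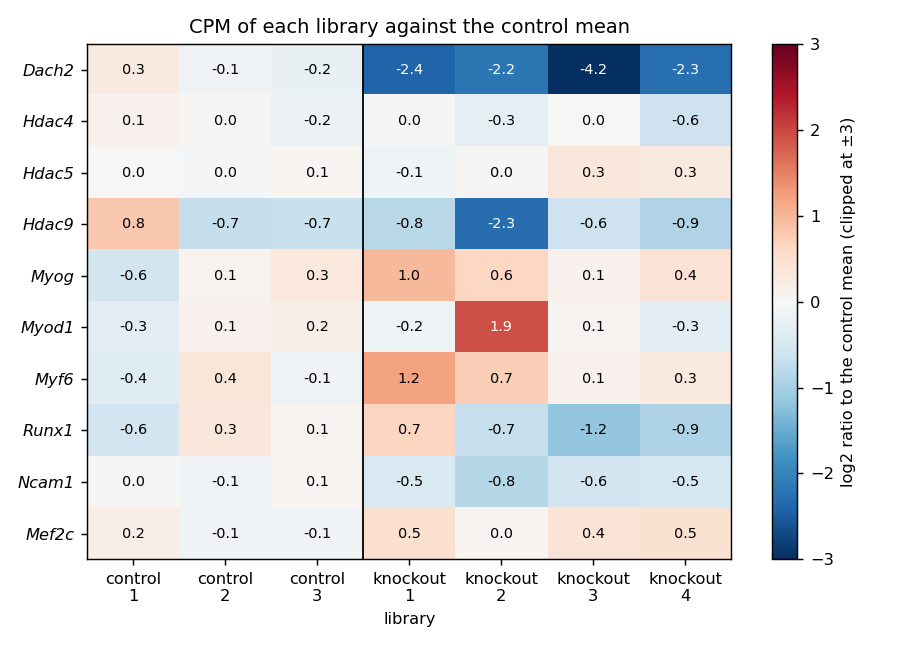
Log2 ratio of each library's CPM to the control mean (cells, colour scale clipped at 3 either way) for the 10 genes (rows) in the 7 libraries (columns). Dach2, Hdac4, Hdac9 and Ncam1 are below the control mean in every knockout. Hdac4 is almost at that mean in knockouts 1 and 3, at -0.033 and -0.012. Some controls are below it too, among them controls 2 and 3 for Hdac9 and control 3 for Hdac4 (-0.178). Myod1 stands out in knockout 2 and Runx1 in knockout 1.

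The genes whose log2 CPM over the 7 libraries was most like that of Dach2, among 10657 compared by Pearson's r, were Ephx2 (0.997), Fam126b (0.996), Mb (0.994), Idh2 (0.994) and Lyrm7 (0.993). Mb encodes myoglobin, the oxygen store of oxidative fibres, and had 3750, 3500 and 3340 CPM in the controls and 875, 996, 253 and 1000 CPM in the knockouts. Like Dach2, it was lowest in knockout 3. For Hdac4 they were Wnt5a (0.970), Mbip (0.952), Dock4 (0.941), Cpne2 (0.939) and Rbms1 (0.930). For Myog they were Rtfdc1 (0.971), Bmpr1b (0.955), Eif3k (0.954), Dcaf15 (0.954) and Commd9 (0.948). All these values come from the same 7 libraries and include the difference between the groups, and they are given as a description.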

How the data were processed

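Gastrocnemius RNA of 3 control and 4 knockout samples was sequenced. The authors mapped reads to mm10 with STAR 2.7.10a and quantified genes with RSEM 1.2.28, per the submitters' processing notes, which also list DESeq2 1.3.40. The deposited values are RSEM expected counts per gene symbol, rounded here to whole numbers. No source used here names the annotation or strand setting. In R 4.3.3, genes passing edgeR 4.0.16's filterByExpr were tested by its quasi-likelihood F test after TMM scaling, with Benjamini-Hochberg adjustment over all 13409 tested genes. Each SE was obtained by dividing the size of the log2 fold change by the root of its F statistic. Levels per kilobase used the union exon length of GENCODE M21 (GRCm38). The 7 libraries held 24458339 to 26389008 counts, so low genes such as Dach2 carry more counting error.

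The 10 members and all gene lists were chosen with earlier results of these data known. Named besides them were the genes of the Dach and Eya, histone deacetylase, MEF2 and Runx lists, and up to 4 called genes of each other list, or the 2 with the smallest p. For Dach2, Hdac4 and Myog, the 5 genes most like them with an average log2 CPM above 1 (prior count 2) were named. Chrna1, Chrnb1, Chrne, Chrnd, Ampd3, Pla2g7, Gadd45a, Pax7, Sox10 and Myf5 were added after their values were seen. Some genes that the rule would name are not reported here, though they are in the counts. Alternatives were RLE and upper quartile scaling, no filter, DESeq2 1.42.0, a replicate block and leaving out each library, and, added after seeing the data, edgeR's legacy fit. The test was checked on simulated data.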

Additional observations from a re-analysis of the deposited data

Results flagged for a closer look

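A library stood apart from the other 3 knockouts for 3 of the 10 genes, by a gap to its nearest neighbour that, as a share of the range of the 4, exceeded Dixon's critical value. Chance alone flags about 1 in 20 such groups, and the 3 controls are too few for the rule. Myod1 stood at 44.6 CPM in knockout 2 (gap 0.911 of the range), against 9.19 to 12.3 CPM in the other knockouts. Runx1 stood at 5.04 CPM in knockout 1 (0.849), against 1.43 to 1.98 CPM. Mef2c stood at 589 CPM in knockout 2 (0.839), against 758 to 790 CPM. The genes whose log2 CPM was most like that of Myod1 over the 7 libraries, looked up after its values were seen, were Myo5c (r = 0.982), Paqr3 (0.981), Pex10 (0.978), Maml1 (0.975) and Dctn4 (0.975). Myo5c, an unconventional myosin, had 59.5 CPM in knockout 2 and 24.8 to 34.6 CPM in the other 6 libraries.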

How the results depend on the processing

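The number of genes called, 1998, was 1967 with RLE scaling, 1939 with upper quartile scaling, 1637 without the filter, 2346 with DESeq2 and 1944 with edgeR's legacy fit. It ran from 793 (without control 3) to 2057 (without knockout 2) when 1 library was left out. It was 830 without control 1, 1040 without control 2, 952 without knockout 3 and 1253 without knockout 4, with fewer samples in each fit. A replicate block gave 1273 calls. Whether the labels' numbers pair the samples could not be settled, and the main fit had no replicate term. Deviations of same-numbered libraries from their group means correlated only at 0.0945, 0.134 and 0.0854, but each control correlated best with its own number. Higher genes made up 44.8% of the calls, 33.2% with upper quartile scaling, where the median log2 fold change of all genes was -0.04, and 36.4%, 36.6% and 32.5% without control 1, 2 and 3. The sign of the log2 fold change held in all 13 alternatives for 9 of the 10 genes of the chain. The exception was Myod1, at -0.12 without knockout 2. Of the other named genes, calls were lost in 97 planned cases and gained in 3. In 476 cases the status was unchanged, and these include genes called neither in the main fit nor in the alternative. Where a call was lost under scaling, filter or block, the cause was not tested. Dach2, at 8 counts in knockout 3, and Runx1 are limited by depth.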

Other observations

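Among the 4 knockouts, Myog, Myf6 and Runx1 shared 1 ranking of the libraries. Myog had 8.24, 6.43, 5.64 and 4.62 CPM in knockouts 1, 2, 4 and 3, Myf6 had 191, 140, 101 and 91.7 CPM, and Runx1 had 5.04, 1.98, 1.69 and 1.43 CPM. Hdac5 had the opposite ranking, with 57.0, 63.9, 75.4 and 78.2 CPM in the same order. The summed level of the 10 fibre genes followed Hdac5, at 140000, 179000, 184000 and 212000 CPM, and the TMM factors followed Myog, at 1.07, 1.01, 0.968 and 0.964. The 3 controls did not share the ranking: Myog was highest in control 3, at 5.25 CPM, while Myf6 and Runx1 were highest in control 2, at 107 and 4.06 CPM, and all 3 genes were lowest in control 1. The part of fibre gene levels or scaling in these rankings was not tested.

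Among the fibre genes, the fast myosin Myh4 rose (log2 fold change 1.11, SE 0.296, edgeR adjusted p = 0.038), and Myh1 and Myh2, myosins of the more oxidative fast fibres, fell by 1.45 and 2.25 on the log2 scale (edgeR adjusted p = 0.0292 and 0.0485). All 3 calls were lost without any 1 of the controls. They were also lost without knockout 2, 3 or 4 for Myh4, without knockout 1 for Myh1 and without knockout 1, 2 or 4 for Myh2, with adjusted p up to 0.152, 0.0788 and 0.117. Myh2 had 4820, 6810 and 4710 CPM in the controls and 1170, 1590, 124 and 1700 CPM in the knockouts, lowest in knockout 3, the library with the least Dach2. Of the other 7 fibre genes tested edgeR called none, with log2 fold changes from -0.21 for Acta1 to 0.53 for Pygm. Over all 10 fibre genes, 5 had an unadjusted p under 0.05, and DESeq2 called 3 higher and 2 lower.

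Hdac6, a cytoplasmic deacetylase outside class IIa, was low in both libraries numbered 1. It had 1.85 CPM in control 1 against 5.94 and 7.88 CPM in the other controls, and 2.68 CPM in knockout 1 against 8.91 to 10.5 CPM in the other knockouts (log2 fold change 0.59, SE 0.509, edgeR adjusted p = 0.459). With the replicate block its log2 fold change was 0.54 (edgeR adjusted p = 0.0625).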
